A study of Mus musculus with 8 samples.

Results

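The replication-dependent histone genes make up most of the histone supply of dividing cells, and they lie in a few dense clusters of short genes. Here they were taken as every gene of the deposited expression table whose symbol starts with Hist1h, Hist2h, Hist3h or Hist4h, which gave 61 of 22744 genes. Of these, 53 belonged to the Hist1 cluster, 5 to Hist2 and 3 to Hist3. By protein, 5 encode the linker histone H1, 16 encode H2A, 17 encode H2B, 11 encode H3 and 12 encode H4, as their symbols name them. Hist3h2bb-ps, Hist1h2aj and Hist1h2al are pseudogenes in RefSeq and were kept. Hist4h4 and the testis variants Hist1h2ba, Hist1h2aa and Hist1h1t had no row under these symbols and were not analysed here.

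RNA was sequenced from whole testis of C57BL/6 mice at postnatal day 8 (P8), with 3 libraries from animals null for Dmrt6 and 3 from wild-type animals, which the series' design text calls biological replicates. Dmrt6, listed in the table as Dmrtb1, encodes a transcription factor of the DMRT family found in germ cells of the testis. Binding of DMRT6 was mapped by chromatin immunoprecipitation (ChIP) with a rabbit polyclonal antibody to the C-terminal part of the protein, in 1 ChIP library set against 1 input library. Both of these came from wild-type adult testis, with the strain given as C57BL/6, Mixed, so peaks and RNA differ in age. The series asks how DMRT6 acts in the passage from mitotic to meiotic programs of spermatogenesis. The labels do not say how the null allele was made.

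Histones H2A, H2B, H3 and H4 form the core particle that DNA wraps around, and H1 binds the DNA between particles. The cluster genes are transcribed mainly in S phase, when new DNA has to be packed, and most of their messages end in a conserved stem-loop bound by SLBP instead of a poly(A) tail. Some also give polyadenylated messages, so the kind of RNA selection sets which of them a library can see; it is not given in the sources used here. In the postnatal testis the dividing cells include spermatogonia, early spermatocytes and, in the first weeks, Sertoli cells.

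The promoters of 5 of these genes are shown because the results below turn on them. Hist1h1a had the smallest unadjusted p of all members in the fit without a minimum level, Hist1h4i had the smallest among the members tested, Hist1h1c had the highest level per length of all members, Hist1h2bk has a DMRT6 peak inside the gene, and Hist1h2bg has the peak of highest score, across its 3′ edge. Each is the RefSeq promoter of GRCm38.p6, from 250 bases before to 50 bases after the start, read 5′ to 3′ on the strand of the gene. Capitals mark, on either strand, the TATA box TATAAA, the box CCAAT, the octamer ATTTGCAT and the H1 box AAACACA.
Hist1h1a (chr13:23763418-23763717, plus strand): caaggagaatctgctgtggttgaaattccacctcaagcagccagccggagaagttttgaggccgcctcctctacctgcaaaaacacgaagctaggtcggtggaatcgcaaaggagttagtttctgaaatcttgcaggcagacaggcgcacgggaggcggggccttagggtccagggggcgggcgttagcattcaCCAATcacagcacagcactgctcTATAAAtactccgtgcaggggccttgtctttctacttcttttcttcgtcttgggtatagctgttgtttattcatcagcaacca
Hist1h1c (chr13:23738557-23738856, plus strand): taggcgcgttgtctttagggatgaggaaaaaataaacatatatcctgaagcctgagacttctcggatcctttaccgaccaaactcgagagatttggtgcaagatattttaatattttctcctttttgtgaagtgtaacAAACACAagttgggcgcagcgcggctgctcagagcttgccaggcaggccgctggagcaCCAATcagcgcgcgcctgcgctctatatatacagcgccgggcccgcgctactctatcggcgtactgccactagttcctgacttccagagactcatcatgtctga
Hist1h4i (chr13:22041313-22041612, minus strand): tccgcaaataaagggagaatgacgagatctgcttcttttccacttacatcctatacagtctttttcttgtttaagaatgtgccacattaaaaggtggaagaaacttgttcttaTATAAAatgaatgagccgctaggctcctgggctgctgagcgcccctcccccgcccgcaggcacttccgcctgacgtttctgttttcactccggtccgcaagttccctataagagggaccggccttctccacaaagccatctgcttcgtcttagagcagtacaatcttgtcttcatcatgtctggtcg
Hist1h2bk (chr13:22035571-22035870, plus strand): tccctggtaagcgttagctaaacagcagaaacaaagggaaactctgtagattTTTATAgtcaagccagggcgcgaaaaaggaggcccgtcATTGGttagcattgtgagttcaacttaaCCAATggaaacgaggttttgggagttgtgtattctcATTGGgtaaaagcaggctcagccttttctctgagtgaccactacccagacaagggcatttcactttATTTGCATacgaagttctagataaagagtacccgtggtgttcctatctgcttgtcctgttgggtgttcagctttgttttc
Hist1h2bg (chr13:23571150-23571449, plus strand): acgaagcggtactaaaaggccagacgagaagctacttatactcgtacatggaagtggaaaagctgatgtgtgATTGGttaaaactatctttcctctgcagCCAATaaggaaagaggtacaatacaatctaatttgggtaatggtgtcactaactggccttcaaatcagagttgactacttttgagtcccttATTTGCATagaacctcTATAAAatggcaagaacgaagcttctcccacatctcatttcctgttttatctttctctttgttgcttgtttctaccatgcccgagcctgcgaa

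The strings searched for are those of known elements of histone promoters. Matches were taken on either strand and at any position, so a marked string need not be a working element. In Hist1h2bk, for example, the marked TATAAA is on the opposite strand, as TTTATA. RefSeq entries were found for 60 of the 61 members and promoters for 52. CCAAT, the box bound by NF-Y, was present in 44 of the 52 (84.6%), against 37.9% of all 27025 promoters of the table. It was in every promoter of H1 (5), H2A (13), H2B (14) and H3 (9), and in 3 of 11 of H4. Of the 5 printed promoters, the one of Hist1h4i had none. TATAAA was present in 59.6% of members and 14.2% of all promoters. The octamer, which POU factors bind, was in 19.2% of members and 1.75% of all promoters, in 6 H2A and 4 H2B genes and in none of H1, H3 or H4. AAACACA was in 4 of 5 H1 promoters and in 7.14% of all promoters. ACANTGT, the palindromic core of the sequence that DMRT proteins bind, was present in 4 members (7.69%), against 7.59% of all promoters. Promoter windows of neighbouring H2A and H2B genes can overlap, as those of Hist1h2ag and Hist1h2bj do. The same string can then count for both genes, so the counts are not all of separate sequences. No overlaps between different motifs were resolved, and a match is a string of letters, not a measured site.

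The RNA libraries held 26.2, 27.4 and 26.3 M reads in null replicates 1, 2 and 3, and 23.8, 29.0 and 27.5 M reads in wild-type replicates 1, 2 and 3. Dmrtb1 itself had 14, 25 and 26 reads in null libraries and 194, 510 and 254 reads in wild-type libraries, a difference of -3.78 log2 CPM (SE 0.36, limma adjusted p = 0.0516). Null replicate 3 stood apart from the other 5 libraries, with 54.3 on a first principal component that held 44.8% of the variance, where the others lay between -20.2 and 1.68. All 12 germ cell and all 8 Sertoli cell markers were above the minimum level for testing. Red blood cell markers summed to between 717 and 1255 CPM in null and between 1477 and 1776 CPM in wild-type libraries, and 5 of 5 were lower in null. Macrophage and leukocyte markers summed to between 86.1 and 117 CPM in null and between 96.3 and 145 CPM in wild-type libraries, and 8 of 8 were lower in null. Of the germ cell markers 10 of 12 were higher in null. In bulk tissue, fewer cells of a type and less RNA per cell cannot be told apart.

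Histone cluster RNA was scarce in these libraries. All members together took 0.0118, 0.0121 and 0.00869% of the reads in null replicates 1, 2 and 3, and 0.0122, 0.0121 and 0.0135% in wild-type replicates 1, 2 and 3. Members below a mean of 0 log2 CPM, the minimum for testing, numbered 36 of 61 (59.0%), against 26.9% of all genes. On average, 16 members had fewer than 10 reads a library.

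The level was concentrated in few genes. Hist1h2bc, Hist1h1c and Hist2h2be, the 3 members of highest mean log2 CPM, held 43.0% of the summed CPM of the members. Hist1h2bc, an H2B gene, had 581, 485 and 324 reads in null libraries and 331, 486 and 745 reads in wild-type libraries. Hist1h1c, encoding the linker histone H1.2, had 452, 522 and 328 reads in null and 343, 484 and 544 reads in wild-type libraries. Hist2h2be, an H2B gene of the smaller cluster on chromosome 3, had 349, 607 and 283 reads in null and 396, 432 and 346 reads in wild-type libraries. In each of the 3 genes null replicate 3 had the lowest count of the 6 libraries, and the ranges of the groups overlapped.

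Per kb of gene span, Hist1h1c led with 10.4 ± 2.04 CPM per kb in null and 10.8 ± 1.75 in wild type (SD, n = 3 each). Next came the H2B genes Hist1h2bj, with 7.53 ± 2.76 CPM per kb in null and 11.5 ± 1.91 in wild type, and Hist1h2bk, with 6.19 ± 2.00 in null and 9.48 ± 1.23 in wild type. Hist1h2bg (5.85 CPM per kb over all 6 libraries), Hist2h2be (5.74) and Hist1h4i (5.50) followed, and these 3 were closer to each other than their spread. No other member exceeded 5 CPM per kb, and 32 of 61 exceeded 1. The span in the table is the whole gene, so genes listed with long spans, such as the 37383 bp of Hist1h2be, which also covers Gm11398, are understated on this scale.

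The classes differed in how their level was spread over genes. In H1, Hist1h1c stood against Hist1h1a with 0.961 CPM per kb and Hist1h1b with 0.255, both over all 6 libraries. In H2A the order was Hist1h2ag (4.16 CPM per kb), the pseudogene Hist1h2al (3.89) and Hist3h2a (3.35), in H3 it was Hist1h3h (2.72), Hist1h3a (2.60) and Hist1h3c (2.42), and in H4 it was Hist1h4i (5.50), Hist1h4k (0.981) and Hist1h4n (0.969). Neighbours in the H2A and H3 orders did not differ beyond the spread of their libraries. In H4 the gap between Hist1h4i and the next gene did, with 4.37 ± 1.09 CPM per kb in null and 6.62 ± 0.481 in wild type for Hist1h4i, against 1.00 ± 0.465 in null and 0.961 ± 0.842 in wild type for Hist1h4k (SD, n = 3 each). Of the 12 H4 genes, 10 averaged under 10 reads a library.

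Near-identical copies limit what a single row can show. Hist1h2ao and Hist1h2ap had the same reads in all 6 libraries and were counted once in summed CPM, while the shares of all reads count both rows. Hist1h2bq had 120, 114 and 70 reads in null and 110, 155 and 137 reads in wild-type libraries, and Hist1h2br had 124, 114 and 72 reads in null and 111, 155 and 139 reads in wild-type libraries. How reads that fit several copies were counted is not given in the sources used here, and the rows of such copies are uncertain. The counts of members lower or higher in null, given below, take each such row separately, so they are not all independent.

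**Figure D1:**
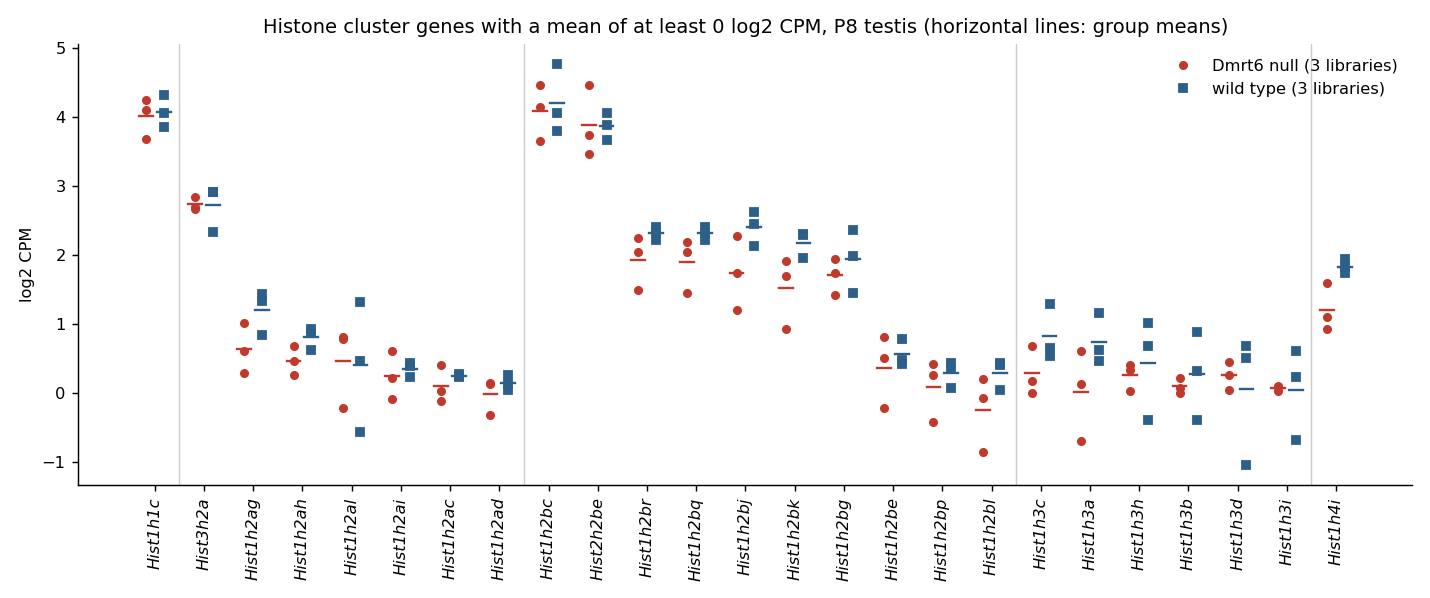
Log2 CPM (vertical axis) of the 25 histone cluster genes with a mean of at least 0 log2 CPM, ordered by class, with 1 point per P8 testis library, null (red circles) left of wild type (blue squares) and lines at the group means. Hist1h2bc, Hist1h1c and Hist2h2be sit near 4, most others lie below 1, and for Hist1h4i, Hist1h2bk and Hist1h2bq the 3 null points lie below the 3 wild-type points.

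Between null and wild-type testes no member passed the test. limma on log2 CPM, with Benjamini-Hochberg adjustment over all 16634 genes tested, called 0 of the 25 testable members and 1 gene in all (0.00601%); limma's voom on the recovered reads also called 0. At an unadjusted p below 0.05, 1 member was lower in null and 0 were higher, against 1.85% of all genes lower and 1.63% higher, and voom gave 2 lower and 0 higher. The direction was uneven: 20 of 25 members (80%) had a lower mean in null, against 48.3% of all genes tested, and their median difference was -0.19 log2 CPM, against 0.01 over all genes. With each library centred on its median the count was 23 of 25, against 56.0% of all genes, and with limma's array weights it was 16 of 25, with a median of -0.08. Null replicate 3, which stood apart over all tested genes too, was the lowest of the 6 libraries for 13 of the 25 members. How often it was the lowest among all genes was not counted, so this need not be particular to the histone genes. Without it 15 of 25 were lower, against 48.9% of all genes, with a median difference of -0.18. The part of that library, of the red blood cell and macrophage markers and of the cell mix in this direction was not tested.

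H4 was represented by 1 testable gene, Hist1h4i (mm9 chr13:22132685-22133221, minus strand), one of many genes for the same H4 protein. It had 1.10, 1.59 and 0.93 log2 CPM in null replicates 1, 2 and 3, and 1.82, 1.94 and 1.73 log2 CPM in wild-type replicates. Every null library was thus below every wild-type library. The difference was -0.62 log2 CPM (SE 0.24, 95% interval -1.18 to -0.07), with a limma p of 0.0321 and an adjusted p of 0.755. The summed level of all 12 H4 genes was 4.30, 5.22 and 4.43 CPM in null and 7.51, 5.57 and 5.24 CPM in wild-type libraries, where the highest null value lay just under the lowest wild-type value. That sum includes Hist1h4i, which alone gave 2.35 of a mean of 4.65 CPM in null and 3.56 of 6.11 CPM in wild type. The sum is thus not separate from the result for Hist1h4i and does not show a lower level in the other H4 genes.

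Among the H2B genes, which had the highest summed CPM of the classes, 9 of 10 testable members had a lower mean in null. Hist1h2bk (mm9 chr13:22127690-22128168, plus strand) had 1.92, 1.69 and 0.93 log2 CPM in null and 2.30, 2.28 and 1.95 log2 CPM in wild-type libraries, so the groups did not overlap. Its difference was -0.66 log2 CPM (SE 0.29, limma adjusted p = 0.755), and it was -0.37 without null replicate 3 and -0.29 with array weights. Hist1h2bj had 2.27, 1.74 and 1.20 log2 CPM in null and 2.62, 2.44 and 2.13 in wild-type libraries, with 1 null library inside the wild-type range. The summed H2B level was 65.0, 65.3 and 40.9 CPM in null and 62.7, 64.8 and 72.0 CPM in wild-type libraries. Only null replicate 3 lay outside the wild-type values on the low side, and the null over wild-type ratio of the mean sums, 0.858, was 0.980 without it.

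Among the tested H2A and H3 genes the ranges of the groups overlapped. Hist1h2ag, which shares a promoter region with Hist1h2bj, had 0.29, 0.61 and 1.02 log2 CPM in null and 1.34, 0.84 and 1.44 in wild-type libraries, a difference of -0.56 (SE 0.29, limma adjusted p = 0.755). Hist1h3a had the most negative difference of the tested members, -0.73 (SE 0.39, limma adjusted p = 0.755), with -0.69, 0.61 and 0.13 log2 CPM in null and 1.16, 0.46 and 0.62 in wild-type libraries. Without null replicate 1 it was -0.37, and Hist1h2bj then had the most negative difference, -0.93. Hist1h3a was called under 1 alternative, limma's array weights, at -1.34 log2 CPM (adjusted p = 0.0464). That fit weights libraries unequally and called 136 genes in all. Over the other alternatives the limma adjusted p of Hist1h3a ran from 0.324 to 1.00. The H3 gene Hist1h3d had the highest positive difference, 0.20 (SE 0.46), with 0.05, 0.27 and 0.45 log2 CPM in null and 0.68, -1.04 and 0.52 in wild-type libraries. That direction rested on 1 library: leaving out wild-type replicate 2 gave a difference of -0.34, and leaving out wild-type replicate 1 gave 0.52. Summed H2A was 18.9, 18.9 and 19.0 CPM in null and 19.5, 21.6 and 23.7 CPM in wild-type libraries, every null value under every wild-type value. Summed H3 was 9.92, 9.89 and 9.74 CPM in null and 14.6, 8.34 and 11.4 CPM in wild-type libraries, and the ranges overlapped.

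No linker histone gene passed the test. Hist1h1c had a difference of -0.06 log2 CPM (SE 0.20, 95% interval -0.51 to 0.39), and its sign turned when null replicate 3 (0.10) or wild-type replicate 3 (0.06) was left out. Hist1h1a, which encodes H1.1, had 8, 6 and 12 reads in null replicates 1, 2 and 3, and 30, 24 and 34 reads in wild-type replicates. Its highest null count was well under its lowest wild-type count. Since its mean of -0.75 log2 CPM was under the minimum, it entered only the fit without a minimum, where the difference was -1.76 log2 CPM (SE 0.42, limma adjusted p = 0.796). Hist1h1b, which encodes H1.5, had 7, 4 and 4 reads in null and 6, 4 and 5 reads in wild-type libraries, too few to show a difference.

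**Figure D2:**
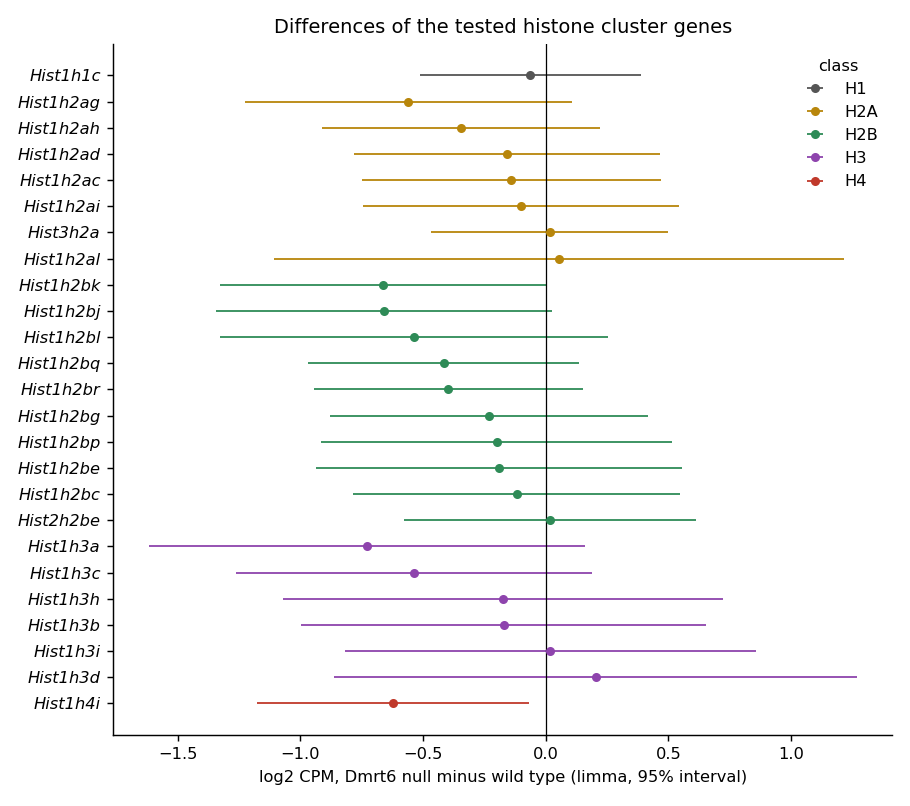
Log2 CPM in null minus wild type (horizontal axis) for the 25 tested histone cluster genes, with 95% intervals from limma, coloured by class. Of the points, 20 lie left of 0, and the interval of Hist1h4i (-1.18 to -0.07) ends below 0.

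Over all 61 members, tested or not, every null library was below every wild-type library for 7 members (11.5%), against 5.73% of all genes of the table. These were Hist1h1a, Hist1h2ak, Hist1h2an, Hist1h2bk, Hist1h2bq, Hist1h4i and Hist1h4n. The opposite held for 1 member (1.64%), against 5.07% of all genes. That member was Hist2h4, with 6, 4 and 2 reads in null and 0 reads in each wild-type library. A count of 0 allows up to 0.126 CPM at the depth of wild-type replicate 1 if each fragment counted once, and more if some counted more than once. Without a minimum level, limma called 0 of the 61 members, against 0.0132% of all genes (3 of 22744). In that fit 46 of the 61 had a lower mean in null (75.4%), against 48.7% of all genes, and the median difference was -0.24 log2 CPM. At an unadjusted p below 0.05, 3 members were lower and 1 was higher, against 1.83% and 1.72% of all genes.

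Summed over the members, histone cluster RNA came to 116.7, 119.4 and 87.7 CPM in null and 120.8, 118.8 and 134.1 CPM in wild-type libraries. The null over wild-type ratio of the means was 0.867, and it was 0.948 without null replicate 3. Null replicate 2 lay within the wild-type range, null replicate 1 just under it and null replicate 3 well under it.

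**Figure D3:**
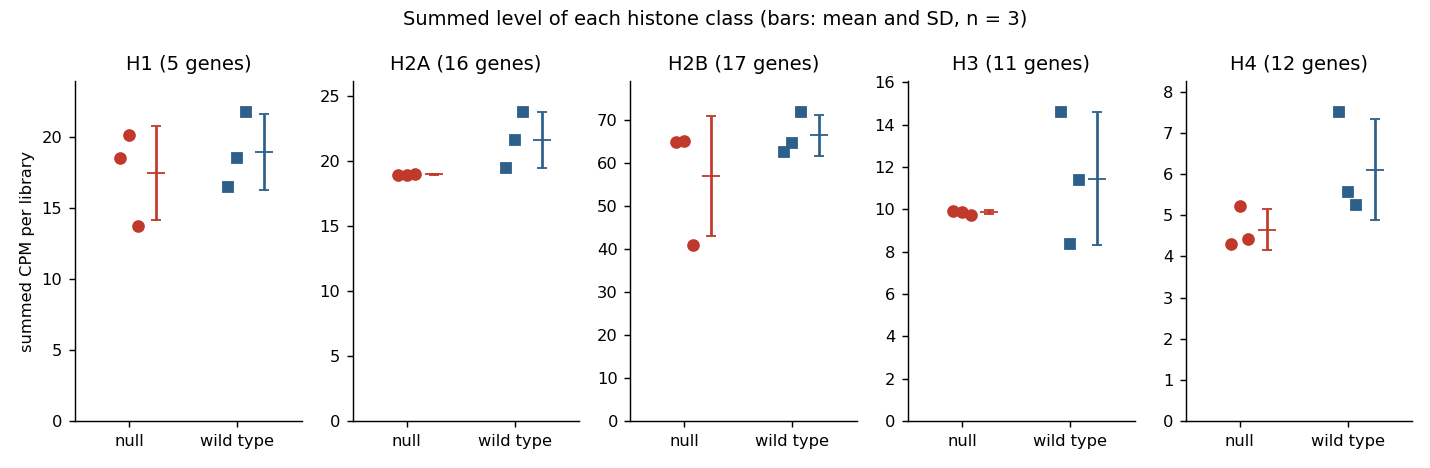
Summed CPM per library (vertical axes, each from 0) of the members of each histone class, null left of wild type, with the mean and SD (n = 3) beside the points. Null replicate 3 is the low point of H1 (13.7 CPM) and H2B (40.9 CPM), while the 3 null values of H2A lie close together at 18.9, 18.9 and 19.0 CPM.

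The partners of these genes did not pass the test either. Of 21 genes for the transcription and processing of histone messages, 0 were called, 9 were lower in null, and the median difference was 0.04 log2 CPM. Slbp, whose product binds the histone stem-loop, had 7.18, 7.25 and 6.98 log2 CPM in null and 7.32, 7.43 and 7.38 in wild-type libraries, with no overlap (-0.24, SE 0.10, limma adjusted p = 0.755). Casp8ap2, the processing factor FLASH, differed by -0.17 (SE 0.10), Lsm11 of the U7 particle by 0.52 (SE 0.23) and the scaffold Sympk by 0.44 (SE 0.29). In this list 12 genes had a higher mean in null.

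Of 16 histone chaperones and related factors, 0 were called, 7 were lower in null, and the median was 0.01 log2 CPM. Hira and Daxx, chaperones of the replacement variant H3.3, differed by 0.39 (SE 0.19) and 0.28 (SE 0.19), while Hat1, which acetylates new H4, and Nasp, a carrier of H1 and of H3 with H4, differed by -0.18 (SE 0.10) and -0.12 (SE 0.09). None of the 4 had an adjusted p below 0.755 in the main limma fit. With limma's array weights it was 0.0628 for Hat1 and 0.0826 for Hira, still above 0.05.

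Of 30 genes of S phase and DNA replication, 0 were called and 20 were lower in null, with the same median as the histone genes, -0.19 log2 CPM. At an unadjusted p below 0.05, 7 were lower and 0 were higher, against 1.85% and 1.63% of all genes. By library the pattern differed. The median deviation from the gene means was -0.03, -0.11 and -0.09 in null and 0.02, 0.12 and 0.13 in wild-type replicates 1, 2 and 3. For the tested histone genes it was 0.07, -0.01 and -0.39 in null and 0.18, 0.03 and 0.22 in wild-type replicates. Rrm2, a subunit of ribonucleotide reductase, had 5.42, 5.33 and 5.06 log2 CPM in null and 5.60, 5.88 and 5.80 in wild-type libraries (-0.49, SE 0.13, limma adjusted p = 0.755). Tk1, thymidine kinase, differed by -0.41 (SE 0.12), and Prim1, a primase subunit, by -0.35 (SE 0.11). In Rrm2, Tk1 and Prim1, which were named for their small p, every null library was below every wild-type library. The same held for 5.73% of all genes of the table. The part of the share of cycling cells in these differences was not tested.

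DMRT6 peaks were frequent on the histone clusters. A peak overlapped the span of 25 of 61 members (41.0%), against 24.9% of all genes of the table. Most members are short, and among genes of at most 1 kb a peak overlapped 21 of 45 members (46.7%), against 38 of 2591 other genes (1.47%). Counted by its middle, a peak was found at most 1 kb from the 5′ end in 30 members (49.2%), against 12.9% of all genes, and at most 10 kb from it in 51 members (83.6%), against 27.9%. Of the other genes of at most 1 kb, 3.09% had a peak's middle at most 1 kb from the 5′ end. By this measure, which does not depend on span, they had fewer peaks than all genes, so they are not a comparison of length alone. Since neighbours in a cluster share peaks, counts in wide windows do not come from separate peaks. With 1 ChIP library there is no replicate check of any peak, and no test was made.

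The peaks were crowded where the genes were. The first stretch of the Hist1 cluster on chromosome 13 (mm9 chr13:21807632-22135545) held 24 members and 15 peaks, 10 of them on members, and the second (chr13:23622919-23856283) held 28 members and 14 peaks, 12 of them on members. That is 45.7 and 60.0 peaks per Mb, against 5.81 over chromosome 13. The Hist3 genes on chromosome 11 had 2 peaks over 3 members, and the Hist2 genes on chromosome 3 had 3 peaks, 1 of them on a member. Hist1h2al lies apart from the rest at chr13:51298057-51298434 and had 1 peak.

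H4 genes were covered most often. A peak overlapped 9 of 12 H4 genes (75.0%), 7 of 16 H2A genes (43.8%), 5 of 17 H2B genes (29.4%), 3 of 11 H3 genes (27.3%) and 1 of 5 H1 genes (20.0%). H4 genes had few reads in the P8 libraries with or without a peak. The median level was -2.08 log2 CPM in the 9 covered ones and -3.50 in the other 3, and Hist1h4i was the one with a level above the minimum. The RNA selection is not given, so a low count need not mean little RNA in the tissue. Hist1h4k, with 4, 12 and 9 reads in null and 14, 7 and 2 reads in wild-type libraries, was covered over its whole span by a peak of 515 bp with a score of 170.11. Over all classes, members with a peak had a median of -0.26 log2 CPM and members without one had -0.41, with ranges that overlapped almost wholly.

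**Figure D4:**
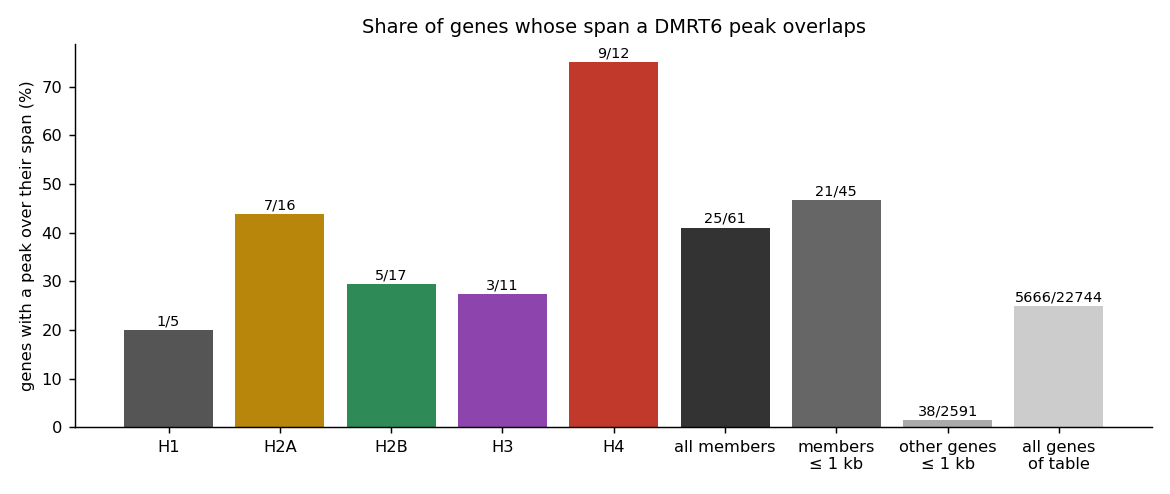
Percent of genes whose span a DMRT6 peak overlaps (vertical axis, from 0), by histone class, for all members, for members of at most 1 kb, for other genes of at most 1 kb and for all genes of the table, with the counts above the bars. The bar of H4 reaches 75.0%, and short genes outside the clusters reach 1.47%.

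Near the 5′ ends, the peaks lay on the side of the gene. The side was not counted for peaks near other genes, so it may not be particular to these. Counted without regard to overlap, 27 peaks had their middle at most 1 kb from the nearest 5′ end of a member. Of these, 26 lay after that end and 1 in front of it, at -683 bp from the 5′ end of Hist1h3i. The same 26 are the peaks that overlap members. Their middles were inside the gene in 25 cases, which the overlap itself makes likely, from 17 to 710 bp after the 5′ end with a median of 187 bp, and the exception was past the 3′ end of Hist1h4d. Among the nearest to the 5′ end were those of Hist1h2al (17 bp), Hist1h4i (21 bp), Hist1h1c (73 bp), Hist1h2bj (75 bp) and the H3 gene Hist2h3c1 (86 bp). Hist1h4i had 2 peaks, with scores of 59.55 and 156.19, and with middles 21 and 210 bp into the gene. In 12 head-to-head pairs of an H2A and an H2B gene, the 5′ ends lie 168 to 269 bp apart around a shared promoter region. No peak had its middle between the 2 genes of a pair. Because these gaps are short, few middles could fall in them, and their absence there shows little. In 3 pairs a peak lay on the H2A gene alone, in 1 on the H2B gene alone, in 2 on both and in 6 on neither.

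The peaks on members were of ordinary height. Their scores, which are the authors' own, ran from 52.15 to 241.04 with a median of 83.9, against a median of 94.7 over all 14862 peaks. The highest belonged to Hist1h2bg, whose peak was centred 601 bp after the 5′ end, at the 3′ edge of its 618 bp span. Hist3h2a, an H2A gene that overlaps Trim17, had one of 181.43 centred 710 bp into the gene. Peaks of a score of at least 100 overlapped 11 members (18.0%), against 13.5% of all genes. Among genes of at most 1 kb, such peaks overlapped 9 of 45 members (20.0%) and 15 of 2591 other genes (0.579%). The coding sequences of a class are nearly alike, and how reads that fit several copies were placed is not given in the sources used here, so the assignment of a peak to 1 copy is uncertain. The part of such reads in the count of peaks was not tested.

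**Figure D5:**
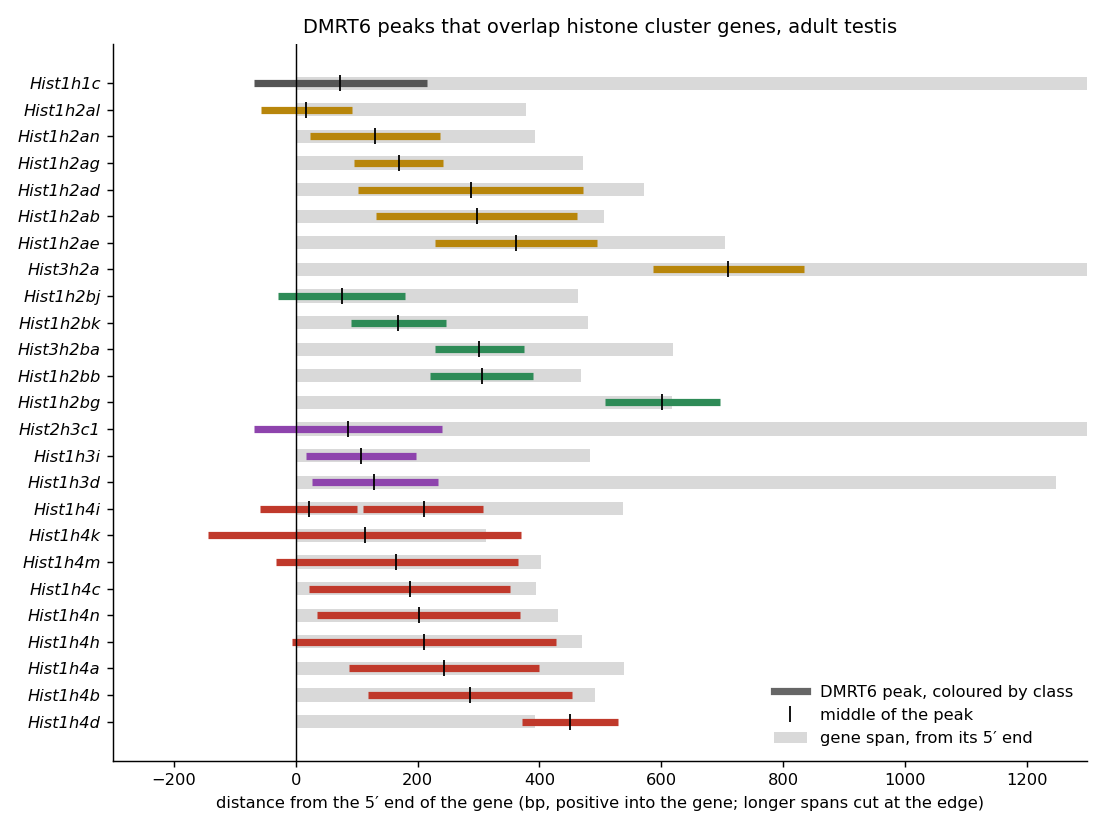
Position of each DMRT6 peak (coloured bar, middle marked) relative to the 5′ end of the histone cluster gene it overlaps, in bp, with the span of the gene in grey. The middles lie between 17 and 710 bp into the genes, except that of Hist1h4d (450 bp), which lies past its 3′ end.

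Of the 25 tested members, 7 of 11 with a peak over the gene and 13 of 14 without one had a lower mean in null. Hist1h4i, Hist1h2bk, Hist1h2bj and Hist1h2ag each had a peak on the gene and a negative difference that did not pass the test. Hist1h3a and Hist1h2bq, also among the 6 of smallest p on that side, had none. Hist1h3d, Hist1h3i, Hist1h2al and Hist3h2a had a peak and differences between 0.02 and 0.20 log2 CPM, each of which turned negative when 1 of the libraries was left out. Slbp and Sympk each had 1 peak on the gene, with the nearest middle 40 and 96 bp in front of the 5′ end. Casp8ap2, Lsm11, Hira, Daxx, Hat1, Nasp, Rrm2, Tk1 and Prim1 had none. A peak overlapped 29.4% of all genes tested, so peaks on these partners were not more frequent than elsewhere.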

How the data were processed

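Per the submitters' processing notes, STAR 2.3.0e, Bowtie2, Picard, edgeR and the build mm9 were used, with no step named for each. The authors deposited log2 CPM values for 22744 genes in 6 RNA libraries made with the TruSeq protocol, and a list of 14862 peaks with a score per peak, called by the authors on 1 ChIP and 1 input library. The read counter, use of strand, annotation release, RNA selection and scale of the score are not stated in any source used here; the ChIP and input depth is unknown. Above a common floor, 2 to the power of each value rises in steps, from which whole reads were recovered for 100% of values at a tolerance of 1e-06; values of 1 to 4 reads were even in 68.5 to 71.3% of cases; whether a fragment could count more than once is not stated. The recovered reads came to between 23.8 and 29.0 M per library. The floor of a count of 0 is 3 reads and covers counting error only.

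Genes with a mean of at least 0 log2 CPM were tested with limma-trend (limma 3.58.1, R 4.3.3), genotype as the only term, no added pseudocount, and Benjamini-Hochberg adjustment at 0.05 over all 16634; the step was tested on simulated data. An exact permutation of 3 against 3 libraries cannot go below p = 0.1 and was not used. CPM per kb divides by the gene span in the table. Peaks were set against gene spans and 5′ ends in mm9, 1-based; RefSeq promoters are of GRCm38.p6 and were matched by symbol or synonym, with no coordinates joined across builds. Other steps used Python 3.11.15 with pandas 2.3.3 and numpy 2.4.6, and matplotlib 3.10.9 for figures.

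The members and gene lists were chosen with earlier results of these data known. Named members were those called, the 6 of smallest p in each direction, the 3 of highest level per kb in each class and up to 10 with the nearest peaks; up to 4 genes were named per partner list, and 1 of them is not reported here. Hist1h2bc, Hist1h2br, Hist1h2be, Hist1h2ak, Hist1h2ao, Hist1h2ap, Hist1h4d, Hist2h4 and Pcna were named after their values were seen. Alternatives were another minimum, log2(CPM + 1), quantile normalization, median centring, voom, array weights, a replicate block, leaving out each library and other peak windows. Same-numbered libraries did not deviate together, so the fit has no block.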

Additional observations from a re-analysis of the deposited data

How the results depend on the processing

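No member was called in any fit except with array weights, where 1 was (Hist1h3a) together with 1 gene of the partner lists (Pcna) and 136 genes in all; the cause was not tested. Leaving out each library in turn gave 0 called members and 0 called partner genes each time, a median difference of the members from -0.35 to -0.15 log2 CPM (-0.08 with array weights, -0.11 with log2(CPM + 1), -0.12 at a mean of at least 2), and a null over wild-type ratio of summed CPM from 0.820 to 0.948. With the replicate number as a block, 0 members and 2 genes in all were called and the median difference was -0.19; same-numbered libraries correlated at -0.085, -0.217 and -0.039 in their deviations. Members with a peak numbered 51 within 10 kb, 30 within 1 kb, 25 by overlap with the gene and 11 by overlap with a peak of a score of at least 100 (18.0%, against 13.5% of all genes); both overlap counts, voom without a minimum and the left-out libraries for summed levels were chosen after seeing the data. Over 35 named genes, 409 refits kept the call and 7 did not, 6 of them for Dmrtb1 and 1 for Hist1h3a. With 16 members under 10 reads a library, low counts limit which differences could be detected, in 10 of the 12 H4 genes above all. The parts of depth and of the RNA selection, which is not given, in these low counts were not tested.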
